A study of Mus musculus with 7 samples.

Results

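The genes described here encode 10 proteins of cartilage matrix other than collagens: Acan, Comp, Hapln1, Matn1, Matn3, Prg4, Chad, Cilp, Cnmd and Ucma. They were taken by gene symbol from the 42689 mouse genes to which transcripts could be matched. RNA was sequenced from hindlimb tendon of mice of C57BL/6 background in 7 libraries, in a study of heterotopic ossification and the kinase TAK1. In heterotopic ossification, bone forms by way of cartilage where soft tissue should be. Mice in 2 of the 3 groups had a burn to part of the skin's depth, covering 30% of the body surface and made on the back in 18 s by contact with metal at 60 °C, and a cut through the Achilles tendon of one hindlimb. The tenotomy group (n = 2) was the injured left leg and the contralateral group (n = 3) the intact right leg of such mice, both taken 3 weeks after injury. Each piece ran from where the tendon enters the gastrocnemius muscle to its attachment on the heel bone. The uninjured group (n = 2) came from wild-type mice with neither burn nor tenotomy. The labels give no genotype for the burned mice, no age, and no statement that libraries came from separate animals, so p-values measure the spread between these libraries, which may be in part technical.

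Cartilage resists compression because aggrecan, a large protein carrying chondroitin sulfate chains, holds water inside a collagen network. Link protein ties aggrecan to hyaluronan, and adaptor proteins such as matrilins, COMP and chondroadherin connect the collagen fibrils with other matrix and with cells. Some of these proteins are nearly restricted to cartilage, whereas COMP, CILP and lubricin also belong to healthy tendon.

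Library totals ran from 25927171 to 36725106 estimated counts. Between 76.4% and 81.4% of a library fell on 5 features, and 4934057 to 8375626 counts were left for all others. Levels are given as CPM, counts scaled to library size and corrected for differences in composition. The tendon markers Scx and Tnmd were present in all 7 libraries (15 to 52 and 175 to 1047 counts). The library labelled uninjured replicate 1 stood apart from uninjured replicate 2. The summed level of 16 skeletal muscle markers was 1309 CPM in replicate 1 and 9297 in replicate 2, against 1052 and 1055 at the tenotomy site and 9632 to 12630 in contralateral tendon. For 13 macrophage and leukocyte markers the sum was 151.8 CPM in replicate 1 and 43.5 in replicate 2, against 149.1 and 152.9 at the tenotomy site and 33.9 to 43.0 in contralateral tendon. Each comparison with the uninjured group is therefore given with and without each of these libraries.

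The first comparison asked how the matrix genes differed between the cut tendon and the intact tendon of the other limb. Of the 10 genes, 6 rose at the tenotomy site (Acan, Matn3, Hapln1, Cnmd, Ucma and Cilp), 2 fell (Prg4 and Chad), Comp did not pass the threshold and Matn1 was too low to test. The threshold was an adjusted p-value of 0.05 in edgeR's quasi-likelihood test, fitted to all 7 libraries and adjusted over 16028 features. In the same fit, 29.0% of all features passed, 13.6% higher and 15.4% lower at the tenotomy site, with a median log2 fold change of 0. Cnmd passed the filter on low counts through the tenotomy libraries alone, and Matn3 and Ucma passed it without any contralateral library. No contralateral library overlapped a tenotomy library for any of the 9 genes tested, which held for 63.7% of all features. The tenotomy libraries were the higher ones for 7 of the 10 (31.9% of all features) and the lower ones for 2 (31.8%). At an unadjusted p under 0.05, 9 of the 10 passed, against 43.3% of all features.

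**Figure D1:**
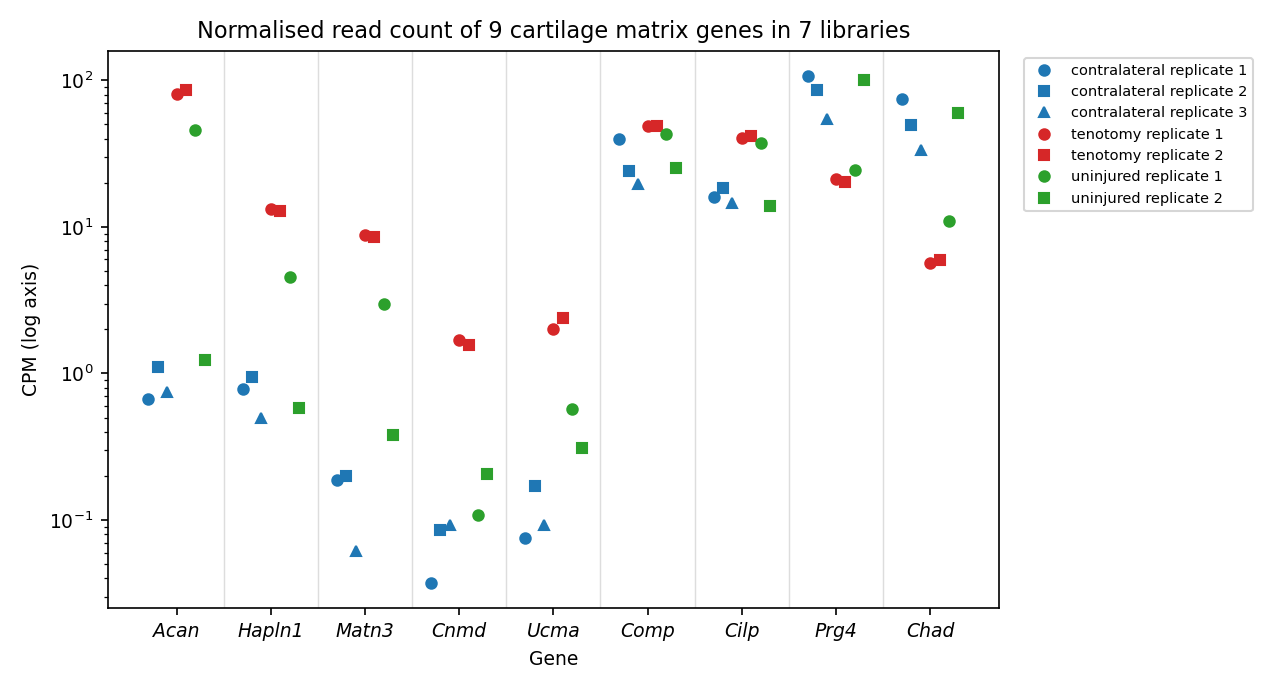
Normalised read count (CPM, log axis) of 9 cartilage matrix genes, 1 point for each of 7 libraries, coloured by group and shaped by replicate. Acan lay at 80.7 and 86.1 CPM in the tenotomy libraries and between 0.675 and 1.11 in the contralateral libraries, while Prg4 and Chad lay lower in the tenotomy libraries. Matn1 is not drawn because most libraries had 0 counts.

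Acan (ENSMUSG00000030607.7; chromosome 7, 79053483 to 79115099, plus strand, GRCm38) encodes aggrecan. It had 18, 39 and 24 counts in contralateral replicates 1 to 3, 2969 and 2583 at the tenotomy site, and 1277 and 36 in uninjured replicates 1 and 2. In CPM this was 0.675, 1.11 and 0.742 against 80.7 and 86.1, with 45.9 and 1.24 in the uninjured libraries. The tenotomy libraries and uninjured replicate 1 were high, and the other 4 libraries were low. Between tenotomy (83.4 CPM ± 3.78, SD, n = 2) and contralateral tendon (0.842 ± 0.234, SD, n = 3) the difference on the log2 scale was 6.61 (SE 1.22, edgeR adjusted p = 0.0167), a 97.8-fold rise.

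Hapln1 (ENSMUSG00000021613.9; chromosome 13, 89539796 to 89611652, plus strand) encodes link protein, which locks aggrecan onto hyaluronan. It was at 0.787, 0.939 and 0.495 CPM in contralateral tendon, 13.2 and 12.8 at the tenotomy site, and 4.53 and 0.585 in uninjured replicates 1 and 2. Its log2 fold change between tenotomy and contralateral tendon was 4.12 (SE 0.65, edgeR adjusted p = 0.0167). Acan and Hapln1 did not keep the same proportion. On the TPM scale, which divides by transcript length and so allows genes to be compared within a library, there were 4.14 and 4.55 Acan transcripts per Hapln1 transcript at the tenotomy site and between 0.579 and 1.014 in contralateral tendon. The ratio was 6.86 in uninjured replicate 1 and 1.43 in replicate 2. The 2 groups did not overlap, but an exact two-sided permutation test of 2 against 3 libraries cannot go below 0.1, the value found.

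Matn3 and Matn1 encode matrilins, adaptor proteins of the cartilage matrix that link collagen fibrils to other components. Matn3 (ENSMUSG00000020583.4; chromosome 12, 8947929 to 8972028, plus strand) had 5, 7 and 2 counts in contralateral tendon, 324 and 258 at the tenotomy site, and 83 and 11 in the uninjured libraries. This corresponded to 0.150 CPM ± 0.0761 (SD, n = 3) in contralateral tendon and 8.70 ± 0.150 (SD, n = 2) at the tenotomy site. The difference was 5.83 in log2 units (SE 0.75; adjusted p = 0.0167 by edgeR). Matn1 (ENSMUSG00000040533.7; chromosome 4, 130944385 to 130955475, plus strand) behaved otherwise: 1 count was found in each tenotomy library and 0 in each of the other 5. A count of 0 allows up to 3 counts, so Matn1 was not detectable at this depth in any group and no fold is given.

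Cnmd (ENSMUSG00000022025.13; chromosome 14, 79637690 to 79662170, minus strand) encodes chondromodulin, a membrane glycoprotein of cartilage that inhibits blood vessel growth and is related to tenomodulin. It had 1, 3 and 3 counts in contralateral tendon, 62 and 47 at the tenotomy site, and 3 and 6 in uninjured replicates 1 and 2. Only the tenotomy libraries were high for this gene, and uninjured replicate 1 was the lower of the uninjured libraries. The log2 fold change against contralateral tendon was 4.39 (SE 0.37, edgeR adjusted p = 0.0143). On 7 contralateral counts in all, the ratio of scaled counts was 21.96, with an exact 95% counting interval of 10.3 to 55.9 that covers counting error only.

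Ucma (ENSMUSG00000026668.10; chromosome 2, 4976122 to 4985748, plus strand) encodes a small secreted protein of cartilage that carries gamma-carboxyglutamate residues. Its counts were 2, 6 and 3 in contralateral tendon, 74 and 72 at the tenotomy site, and 16 and 9 in uninjured replicates 1 and 2. At 2.01 and 2.40 CPM the tenotomy libraries lay above every other library, the next being uninjured replicate 1 at 0.575. Against contralateral tendon Ucma rose by 4.20 in log2 units (SE 0.36, edgeR adjusted p = 0.0143).

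Comp and Cilp encode matrix proteins that are made in tendon as well as in cartilage, and both were well expressed in every library. Comp (ENSMUSG00000031849.9; chromosome 8, 70373558 to 70382066, plus strand), cartilage oligomeric matrix protein, was at 39.7, 24.0 and 19.6 CPM in contralateral tendon, 48.7 and 48.9 at the tenotomy site, and 42.8 and 25.4 in the uninjured libraries. The groups did not overlap, yet contralateral replicate 1 lay near the tenotomy values. Its log2 fold change of 0.81 (SE 0.34) did not pass (edgeR adjusted p = 0.104). Comp passed when the tenotomy and contralateral libraries were fitted alone (edgeR adjusted p = 0.0104). Cilp (ENSMUSG00000042254.14; chromosome 9, 65265180 to 65280605, plus strand), cartilage intermediate layer protein, was at 16.0, 18.5 and 14.5 CPM in contralateral tendon, 40.7 and 41.9 at the tenotomy site, and 37.7 and 13.9 in the uninjured libraries. It rose by 1.34 in log2 units (SE 0.36, edgeR adjusted p = 0.0311), a 2.53-fold change. From 86.8% to 99.2% of Cilp counts lay on transcript Cilp-201, depending on the library.

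Prg4 and Chad went the other way. Prg4 (ENSMUSG00000006014.16; chromosome 1, 150449412 to 150466165, minus strand) encodes lubricin, which lubricates joint and tendon surfaces and is made by superficial cartilage cells and synovial lining. It was at 107.0, 86.1 and 54.3 CPM in contralateral tendon, 21.3 and 20.3 at the tenotomy site, and 24.5 and 100.8 in uninjured replicates 1 and 2. The log2 fold change was -1.98 (SE 0.58, edgeR adjusted p = 0.0392). Tested on TPM scaled back to library size, Prg4 missed the threshold (edgeR adjusted p = 0.0526). Of its 8 listed transcripts, Prg4-206 (3821 bases) held 85.1% to 85.5% of the counts in contralateral tendon, 87.0% and 87.9% at the tenotomy site, and 81.3% and 83.9% in the uninjured libraries. The exons of Prg4 share 204 of 4280 bases with Tpr on the other strand, and Tpr was between 19.4 and 27.8 CPM in all libraries.

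Chad (ENSMUSG00000039084.8; chromosome 11, 94565047 to 94569127, plus strand) encodes chondroadherin, a leucine-rich repeat protein that binds collagen and cell-surface integrin. It was at 74.2, 49.7 and 33.5 CPM in contralateral tendon, 5.63 and 5.97 at the tenotomy site, and 11.0 and 59.6 in uninjured replicates 1 and 2. Chad fell by 3.18 in log2 units (SE 0.72, edgeR adjusted p = 0.0192), a 9.05-fold change. The contralateral libraries and uninjured replicate 2 were high, and uninjured replicate 1 lay between these and the tenotomy libraries. Chad lies within the span of Acsf2, on the opposite strand, but shares 0 exonic bases with it.

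The muscle and adipose markers moved in the same direction as Prg4 and Chad. All 16 muscle markers fell at the tenotomy site (15.4% of all features did). The adipose sum was 139.2 and 137.8 CPM there, against 373.4 to 477.3 in contralateral tendon. It was 142.5 in uninjured replicate 1 and 390.5 in replicate 2. A list of 10 synovial lining markers, which holds Prg4 itself, gave 2 genes higher (Has1 and Vcam1) and 3 lower (Prg4, Clic5 and Col22a1), and the other 5 did not pass. The part of tissue composition in these results was not tested. In tissue of this kind, fewer cells of a type and less RNA per cell cannot be told apart.

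The calls of this comparison depended on which libraries were in the fit. In the fit of all groups, 0 of the 10 genes passed when any one contralateral or tenotomy library was left out, and 0.0% of all features did. The log2 fold change of Acan lay between 6.48 and 6.86 in these fits. In fits of the tenotomy and contralateral libraries alone, 9 passed with all 5 libraries (46.1% of all features did), and 8 or 9 when any one of them was left out, Comp missing the threshold without tenotomy replicate 1 (edgeR adjusted p = 0.0556). Of all features, 48.4%, 41.2% and 44.8% were called there without contralateral replicate 1, 2 or 3, and 32.1% and 33.0% without tenotomy replicate 1 or 2. Leaving out uninjured replicate 1 or 2 from the fit of all groups also gave 9, with 42.9% and 43.5% of all features called. The title series as a covariate gave 9 as well (34.8% of all features). That covariate left tenotomy replicate 1 alone against the contralateral libraries, so spread between tenotomy libraries did not enter these calls. The log2 fold change of Acan was 6.55 there, against 6.56 in the fit of all groups without tenotomy replicate 2.

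**Figure D2:**
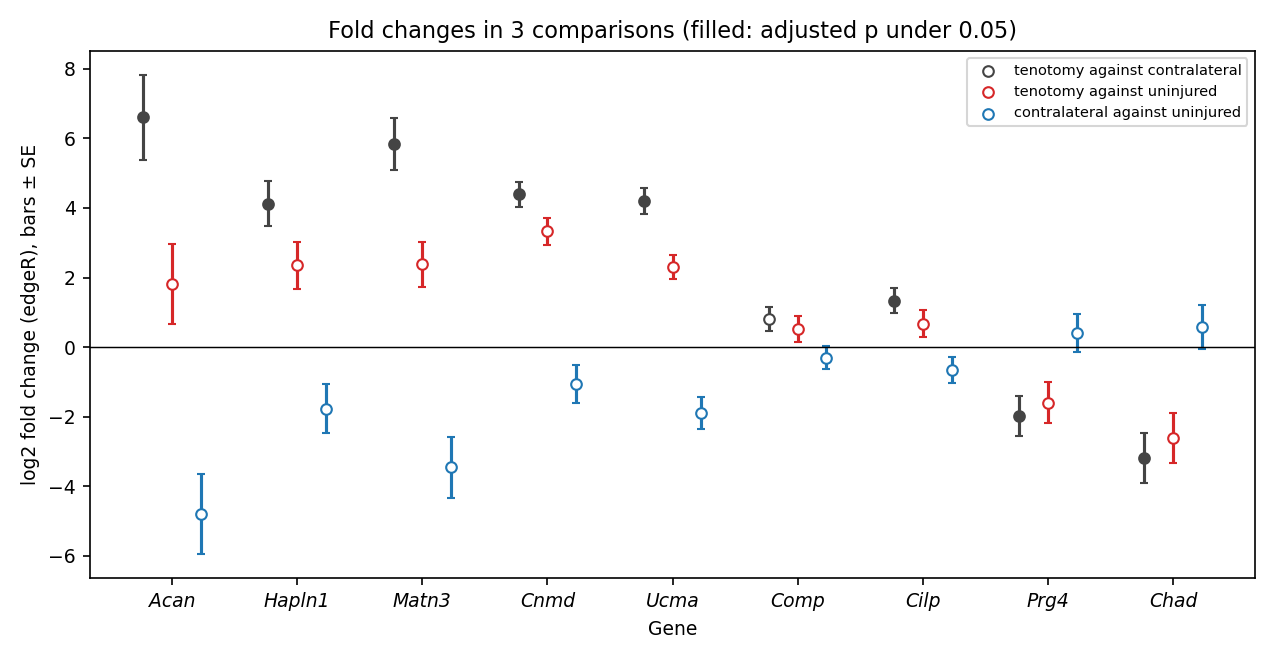
Log2 fold change with its SE (edgeR, all 7 libraries) of 9 genes in 3 comparisons, filled where the adjusted p-value is under 0.05. Filled points occur only between tenotomy and contralateral tendon, from 6.61 for Acan to -3.18 for Chad, and Comp at 0.81 is open there.

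The promoters of Acan, Matn3 and Chad are printed because these genes include the 2 largest rises and the largest fall of the set. RefSeq windows of 300 bases (250 before the start and 50 from it, GRCm38.p6) were held for 8 of the 10 genes. Capitals mark the GC box GGGCGG and the TATA box TATAAA, each searched on both strands. The sequences run 5′ to 3′ on the gene's strand: Acan at chr7:79052976-79053275, Matn3 at chr12:8947679-8947978 and Chad at chr11:94564797-94565096, all plus strand. The RefSeq start of Acan lies 257 bases before the gene start of the GENCODE annotation.
Acan: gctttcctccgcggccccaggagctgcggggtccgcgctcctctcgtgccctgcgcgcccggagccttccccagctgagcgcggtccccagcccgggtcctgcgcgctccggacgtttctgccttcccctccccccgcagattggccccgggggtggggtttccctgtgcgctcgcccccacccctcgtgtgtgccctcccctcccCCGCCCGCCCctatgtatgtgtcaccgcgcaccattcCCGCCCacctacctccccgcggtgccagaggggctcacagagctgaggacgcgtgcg
Matn3: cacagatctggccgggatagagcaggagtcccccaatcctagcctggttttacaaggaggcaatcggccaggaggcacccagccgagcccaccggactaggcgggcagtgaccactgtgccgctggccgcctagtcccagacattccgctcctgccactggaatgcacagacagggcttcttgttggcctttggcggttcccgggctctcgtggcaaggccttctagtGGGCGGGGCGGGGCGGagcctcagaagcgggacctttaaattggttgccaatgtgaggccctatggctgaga
Chad: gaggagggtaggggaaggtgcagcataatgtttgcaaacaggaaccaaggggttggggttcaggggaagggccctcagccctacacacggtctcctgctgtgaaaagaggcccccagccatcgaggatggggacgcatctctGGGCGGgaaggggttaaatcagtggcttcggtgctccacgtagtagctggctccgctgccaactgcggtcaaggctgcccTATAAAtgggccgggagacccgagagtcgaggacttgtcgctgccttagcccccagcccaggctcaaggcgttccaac
Acan held 3 GC boxes, all on the other strand, and Matn3 held 3 on its own strand, neighbours among them sharing 1 base. The first 2 of Acan overlap. Matn1 held 1 GC box, and none of the searched letters were found for Ucma, Cilp, Hapln1 and Cnmd. The RefSeq start of Hapln1 lies 840 bases after the gene start of the GENCODE annotation, so its window does not cover that start. Chad held 1 GC box and 1 TATA box, both on its own strand. Of all 32851 windows of this length, 35.7% held a GC box and 13.6% a TATA box. The SOX core sequences ACAAAG (in 18.7% of all windows) and AACAAT (in 10.7%) were searched in the same way and were found in none of the 8 windows. These matches describe letters in a window and not binding.

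Levels per transcript length showed how the order of the 10 genes differed between libraries. In contralateral tendon Chad and Prg4 were the highest, at 2.82 to 7.91 and 2.53 to 6.74 TPM, followed by Comp (1.08 to 2.77) and Cilp (0.443 to 0.717). Summed over transcripts, Chad and Prg4 changed places between these libraries and so could not be ordered. Prg4-206 alone, which held most Prg4 counts, was at 3.88, 3.11 and 1.55 TPM in contralateral replicates 1 to 3. Chad was above it in each (7.91, 5.29 and 2.82). The short Prg4-205 (577 bases) added 1.76, 0.990 and 0.740 TPM on at most 3.66% of the counts. The other 6 genes, Acan included, were at most 0.0802 TPM there. At the tenotomy site Comp came first (2.89 and 3.24 TPM), then Acan (1.47 and 1.75), Cilp (1.35 and 1.55), Prg4 (1.13 and 1.15), Ucma (0.714 and 0.728) and Chad (0.508 and 0.599). Matn3, Hapln1 and Cnmd followed at 0.215 to 0.449 TPM, and Matn1 was last. Of the Ucma level, 0.401 and 0.224 TPM came from Ucma-203, a processed transcript of 430 bases. The place of Ucma above Chad depended on that transcript. The order was the same in both tenotomy libraries, although the values of Acan and Cilp overlapped.

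**Figure D3:**
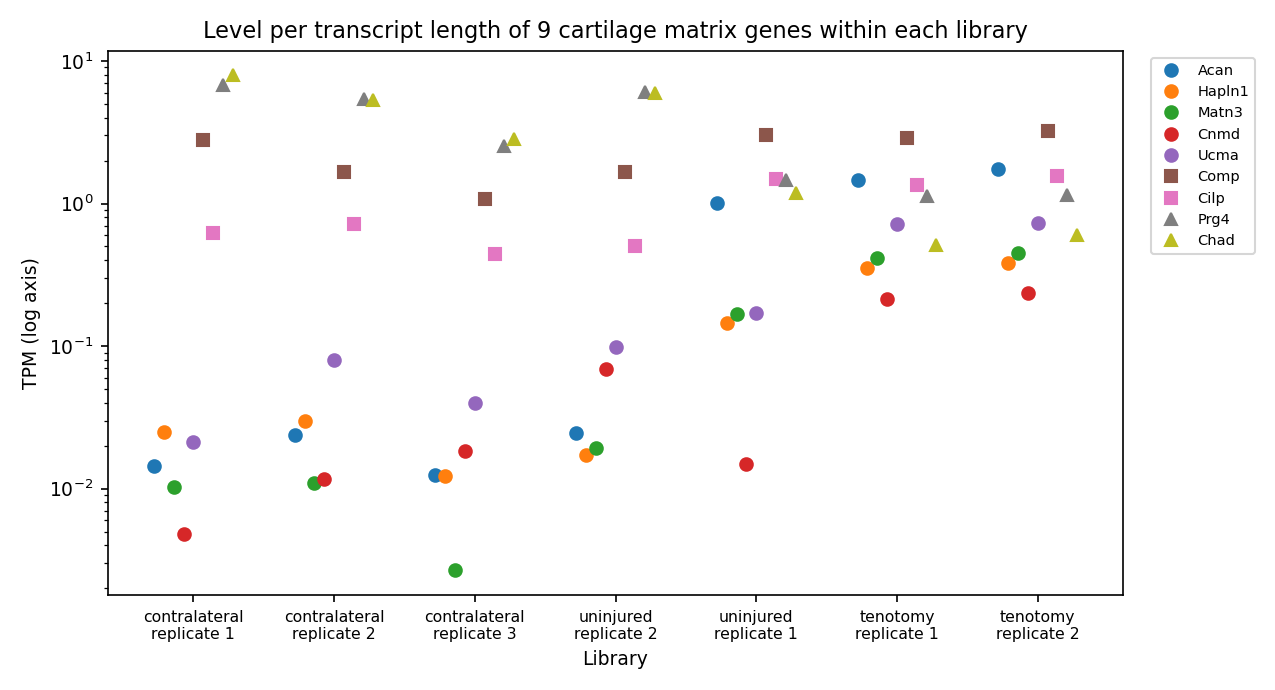
Level per transcript length (TPM as deposited, log axis) of 9 genes within each of 7 libraries. Chad and Prg4 lead in the contralateral libraries and uninjured replicate 2, and Comp leads in uninjured replicate 1 and both tenotomy libraries, where Acan reaches 1.00 to 1.75 TPM.

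The second comparison asked how the cut tendon differed from tendon of mice without injury. None of the 10 genes passed in the edgeR fit of all libraries, where 0.0% of all features did (0 of 16028). An unadjusted p under 0.05 was found for 6 of the 10 (Hapln1, Matn3, Cnmd, Ucma, Prg4 and Chad), against 10.9% of all features. DESeq2 called Chad (adjusted p = 0.0089; 6.19% of features with an adjusted p were called) and limma-voom called 0 of the 10. DESeq2 gave no adjusted p for Hapln1, Matn3, Cnmd and Ucma. The log2 fold change of Acan was 3.47 with limma-voom, against 1.82 with edgeR. Without the filter on low counts edgeR called Cnmd and Ucma (0.0515% of features), and with the title series as a covariate 0 (0.025%). The log2 fold changes were 1.82 for Acan (SE 1.14), 2.35 for Hapln1 (SE 0.67), 2.38 for Matn3 (SE 0.65), 3.33 for Cnmd (SE 0.38) and 2.31 for Ucma (SE 0.35). They were 0.52 for Comp (SE 0.37), 0.68 for Cilp (SE 0.40), -1.59 for Prg4 (SE 0.60) and -2.61 for Chad (SE 0.73). Both tenotomy libraries lay outside the uninjured values for all 9 genes tested, 7 higher (20.1% of all features) and 2 lower (20.4%), 40.5% in either direction.

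The result depended on which uninjured library was used. Against uninjured replicate 2 alone, 9 of the 10 genes passed, with 25.1% of all features called. Acan then changed by 6.07 (edgeR adjusted p = 8.57e-08), Matn3 by 4.51 (1.08e-06) and Chad by -3.36 (1.82e-05). Against uninjured replicate 1 alone, 3 passed, with 0.083% of all features called (14 of 16877). These were Hapln1 (log2 fold change 1.52), Matn3 (1.55) and Cnmd (3.87). Cnmd had 3 counts in uninjured replicate 1 and passed the filter on low counts through the tenotomy libraries alone. Acan changed by 0.86 there (edgeR adjusted p = 0.130), Comp by 0.19 and Cilp by 0.14. In both fits the lone uninjured library was assumed to vary like the other groups.

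The third comparison set the intact limb of burned mice beside the limb of mice that had no injury. None of the 10 genes passed in the edgeR fit (0.0% of all features did), and 4 had an unadjusted p-value under 0.05 (Acan, Hapln1, Matn3 and Ucma), against 19.2% of all features. DESeq2 called Acan (adjusted p = 0.0136; 4.01% of features with an adjusted p were called) and limma-voom called 0 of the 10. DESeq2 gave no adjusted p for Matn3, Cnmd and Ucma. Without the filter on low counts edgeR called Acan and Matn3 (1.16% of features), and with the title series as a covariate 6 genes (15.4%). For Acan, Matn3, Cnmd and Ucma the contralateral libraries lay below both uninjured libraries (16.6% of all features did), and for the other 5 genes tested the groups overlapped. The share of all features whose libraries did not overlap was 35.5%. Log2 fold changes were -4.79 for Acan (SE 1.15), -3.45 for Matn3 (SE 0.87), -1.89 for Ucma (SE 0.46), -1.77 for Hapln1 (SE 0.70) and -1.05 for Cnmd (SE 0.55). Those of Comp, Cilp, Prg4 and Chad lay between -0.66 and 0.57. With uninjured replicate 2 as the only uninjured library, 0 genes of the set passed (0.617% of all features did) and Acan changed by -0.53 (edgeR adjusted p = 0.563). With replicate 1 as the only one, 7 passed (32.0% of all features did), and Acan changed by -5.73 (edgeR adjusted p = 6.39e-09). The comparisons share libraries pairwise and are not independent of each other.

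For all 9 genes tested, uninjured replicate 1 lay between the tenotomy and the contralateral libraries. This pattern was noticed after the values were seen. Among the 10207 features whose tenotomy and contralateral libraries did not overlap, 38.9% had uninjured replicate 1 in between. The distance from the contralateral mean to uninjured replicate 1, as a share of the distance to the tenotomy mean in log2 CPM, was 90.1% for Cilp, 88.0% for Prg4, 86.9% for Acan, 78.6% for Comp, 71.9% for Matn3, 70.2% for Chad, 62.9% for Hapln1, 50.9% for Ucma and 9.94% for Cnmd. Uninjured replicate 2 lay between the groups for 4 of the 9 genes (Acan, Matn3, Cnmd and Ucma), against 39.5% of those features. Its largest share was 30.1%, for Ucma.

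The sample titles carry numbers, which were split here at their gaps into 3 series. The labels name neither the series nor any batch. Tenotomy replicate 1 shares a series with the contralateral libraries and tenotomy replicate 2 with uninjured replicate 1. Within the first, tenotomy replicate 1 exceeded the contralateral mean in log2 CPM by 6.51 for Acan, 5.45 for Matn3, 4.08 for Hapln1, 3.71 for Cnmd, 3.59 for Ucma, 1.32 for Cilp and 0.87 for Comp, with -1.89 for Prg4 and -3.13 for Chad. Within the second, tenotomy replicate 2 differed from uninjured replicate 1 by 3.24 for Cnmd, 1.95 for Ucma, 1.51 for Matn3, 1.49 for Hapln1, 0.91 for Acan, 0.19 for Comp, 0.15 for Cilp, -0.27 for Prg4 and -0.88 for Chad. The directions were the same in both series for all 9 genes. This follows from uninjured replicate 1 lying between the groups for each of them, and the second series sets 1 library against 1. The last series holds uninjured replicate 2 alone.

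Other genes of the same matrix were taken as 4 lists. Of all features, 13.6% rose and 15.4% fell between contralateral tendon and the tenotomy site. Among 27 other non-collagen matrix genes, 20 were tested, of which 9 rose and 1 fell between contralateral tendon and the tenotomy site (median log2 fold change 1.14, against 0 for all features). Epyc, which encodes the small proteoglycan epiphycan of growth cartilage, rose by 4.19 (edgeR adjusted p = 0.0284) on 5 contralateral counts in all, a count ratio of 19.2 (exact 95% counting interval 7.83 to 60.9). Matn4, a further matrilin, rose by 3.97 (edgeR adjusted p = 0.0177) and was at 10.02 CPM in uninjured replicate 1, above the tenotomy libraries (7.59 and 7.37). Scrg1 rose by 3.41 (edgeR adjusted p = 0.0167) on at most 0.633 CPM, and Thbs1, a thrombospondin of injured tissue, by 2.61 (edgeR adjusted p = 0.0264). Scrg1 had 21 and 19 counts at the tenotomy site and at most 5 in any other library. It passed the filter on low counts through the tenotomy libraries alone. The 1 gene that fell was Cytl1, by 1.59 (edgeR adjusted p = 0.0315), named after its value was seen. When either uninjured library was left out of the fit, 13 genes of this list rose and 4 fell. Of all features, 42.9% and 43.5% were called without uninjured replicate 1 or 2, against 29.0% with all libraries.

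Of 21 cartilage collagens and chondrocyte regulators, 17 were tested, of which 10 rose and 2 fell (median 1.97), against 13.6% and 15.4% of all features. Col2a1, encoding the main cartilage collagen, was at 0.412, 0.655 and 0.402 CPM in contralateral tendon, 126.1 and 125.4 at the tenotomy site, and 16.6 and 1.55 in uninjured replicates 1 and 2. It rose by 7.98 in log2 units (SE 0.94, edgeR adjusted p = 0.0167). Col9a2 rose by 5.89, Col9a3 by 5.88 and Col9a1 by 4.86 (edgeR adjusted p = 0.0143 to 0.0167); they encode the chains of collagen IX, which sits on collagen II fibrils. Col9a2 had 5 contralateral counts in all, a count ratio of 64.0 (exact 95% counting interval 27.0 to 199.1). Sox9, the transcription factor that drives chondrocyte genes, rose by 1.97 (SE 0.37, edgeR adjusted p = 0.0167). The genes that fell were Barx2 and Sox6, by 2.02 and 1.81, named after their values were seen. Sox6 is also expressed in skeletal muscle. Per transcript length, Acan stood at 0.371 and 0.410 of Col2a1 at the tenotomy site, between 0.925 and 1.12 of it in contralateral tendon, and at 1.69 and 0.262 of it in uninjured replicates 1 and 2.

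Enzymes that build and sulfate chondroitin sulfate, the sugar chains of aggrecan, numbered 26, of which 25 were tested. In this list 16 rose and 0 fell (median 0.82), against 13.6% and 15.4% of all features. The largest rises were of the chain polymerising enzymes Chsy3 (2.72) and Chsy1 (2.29), the chain-starting xylosyltransferase Xylt1 (2.46) and the sulfotransferase Chst11 (2.39), with edgeR adjusted p-values of 0.0167 to 0.0189. Among 19 proteases that cut aggrecan or COMP and their inhibitors, 18 were tested. Of these, 13 rose and 1, Adamts8, fell (median 1.64), beside the same shares of all features. Mmp13, a collagenase of cartilage, rose (fitted log2 fold change 9.37, SE 1.91, edgeR adjusted p = 0.0167) on 0, 1 and 3 counts in contralateral tendon. Its ratio of scaled counts was 721, with an exact 95% counting interval of 281 to 2647. It was at 30.2 and 31.1 CPM at the tenotomy site, at most 0.0928 in contralateral tendon, and 23.03 and 0.0688 in uninjured replicates 1 and 2. Mmp3 rose by 5.30, Timp1 by 4.11 and Mmp14 by 3.97. In the edgeR fit of all libraries, none of the genes in these lists passed against the uninjured group, in either comparison. Col2a1 did pass between tenotomy and uninjured tendon with DESeq2 (adjusted p = 0.0219). It also passed with edgeR when low features were kept (adjusted p = 0.0306). The uninjured group rested on 1 library without uninjured replicate 1 or 2, and with the title series as a covariate. That covariate left tenotomy replicate 2 against uninjured replicate 1, which differed in log2 CPM by 2.92 for Col2a1 and 0.76 for Sox9. Between contralateral and uninjured tendon Col2a1 passed with DESeq2 and with low features kept. Its log2 fold changes there were -1.63 to -5.05 over these 5 fits. With 1 uninjured library in the fit, the calls in the 4 lists depended on which library it was. In the order given, the summed levels of the lists were 613.1, 186.9, 102.9 and 369.0 CPM in uninjured replicate 1. They were 379.8, 78.0, 80.4 and 200.2 CPM in uninjured replicate 2.

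**Figure D4:**
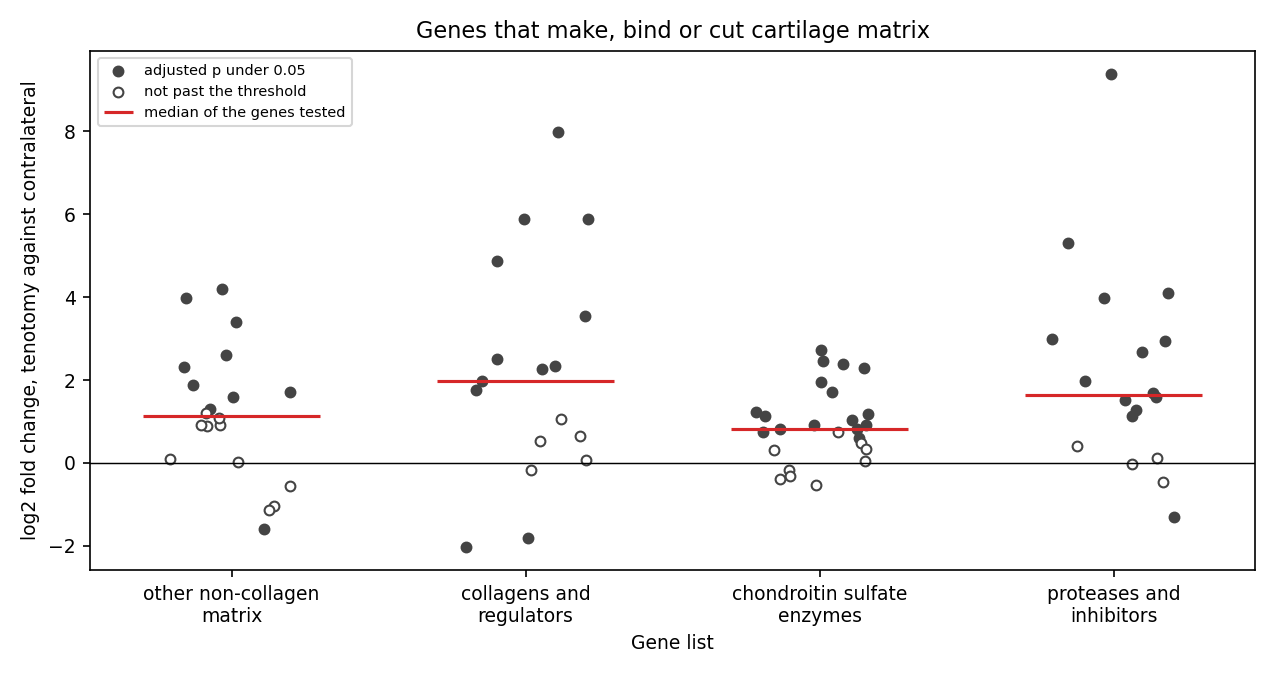
Log2 fold change between tenotomy and contralateral tendon (edgeR, all 7 libraries) of the genes tested in 4 lists, filled where the adjusted p-value is under 0.05, with a line at each list's median. The medians lie at 1.14, 1.97, 0.82 and 1.64, and the highest point is Mmp13 at 9.37, a fitted value on at most 3 counts in each contralateral library.

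Of 15 bone and osteoblast markers 6 were tested, and their sum was 51.7 and 51.3 CPM at the tenotomy site, 17.5 to 23.3 in contralateral tendon, and 46.6 and 11.0 in uninjured replicates 1 and 2. Spp1, which macrophages also express, was 47.9 and 47.8 CPM of this sum at the tenotomy site and 5.02 CPM of it in uninjured replicate 2. Among the markers too low to test, Mepe and Sost were at 0 in every library, and Sp7, Bglap and Dmp1 reached at most 4, 2 and 12 counts. Ibsp was present, with 224, 203 and 130 counts in contralateral tendon, 3 and 3 at the tenotomy site, and 17 and 69 in uninjured replicates 1 and 2. Ibsp and Alpl fell at the tenotomy site (log2 fold changes -6.01 and -1.73, edgeR adjusted p = 0.0167 for both) and 0 of the list rose. Of the 13 macrophage markers 12 rose, and of 13 tendon markers 9 rose, against 13.6% of all features. The summed tendon level was 5217 and 5248 CPM at the tenotomy site, 955.4 to 1322 in contralateral tendon, and 4801 and 4053 in uninjured replicates 1 and 2. Col1a1 and Col1a2 were 2214 and 1489 CPM of this sum in uninjured replicate 2, so it says little about the other markers. Scx and Tnmd were at 0.585 and 11.8 CPM in that library. At the tenotomy site Scx was at 1.33 and 1.73 CPM and Tnmd at 28.5 and 27.3. In contralateral tendon they were at 0.464 to 0.626 and 5.41 to 9.07. Endothelial markers gave 2 genes lower of 8 (15.4% of all features were lower), and erythroid markers 2 higher of the 5 tested. The part of these cell types in the matrix results was not tested.

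**Figure D5:**
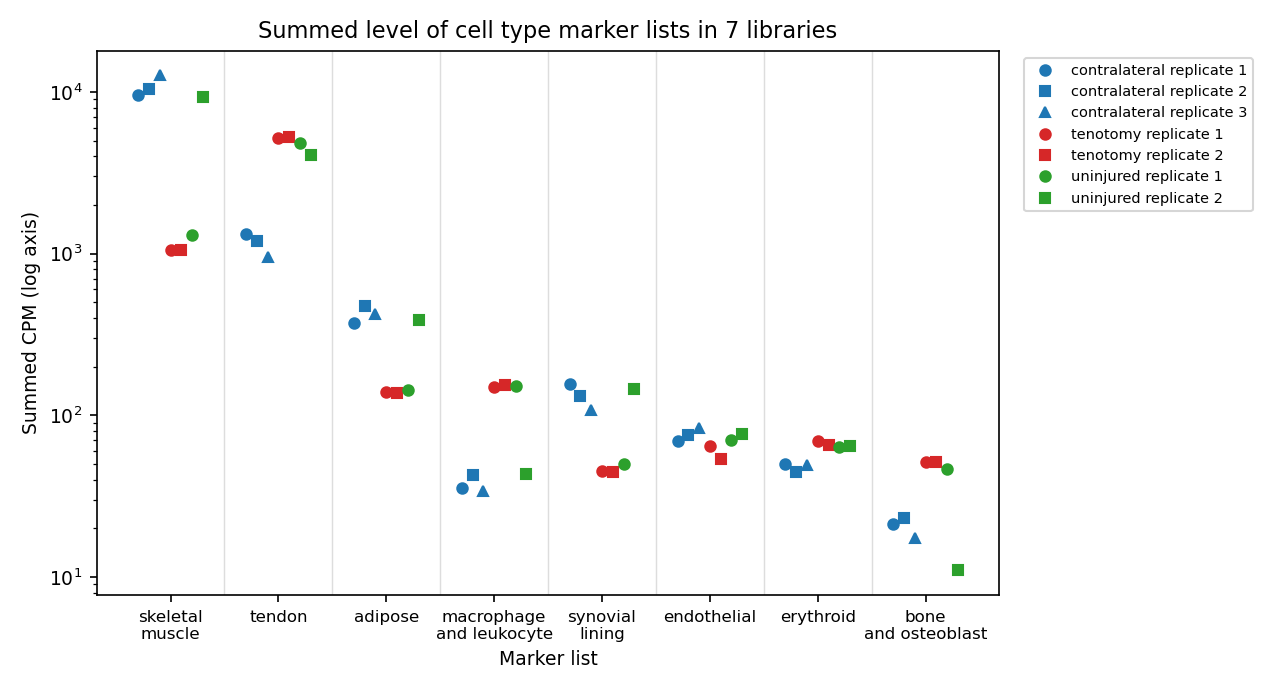
Summed level (CPM, log axis) of 8 cell type marker lists, 1 point for each of 7 libraries. Uninjured replicate 1 lies beside the tenotomy libraries for muscle (1309 CPM) and macrophage markers (151.8 CPM), and uninjured replicate 2 beside the contralateral libraries (9297 and 43.5 CPM).

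The genes most like the set were found by the Pearson correlation of log2 CPM over the 7 libraries with the mean standardized profile of the 9 genes tested. They were Stk3 and Cand1 (r = 0.995 for both), Sh3kbp1 (0.992), Mcc (0.990) and Sptan1 (0.989), given as a description. The mean profile combines genes that rose with genes that fell. Sptan1 ran from 40.6 to 52.4 CPM over the libraries and Sh3kbp1 from 3.40 to 7.89.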

How the data were processed

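RNA-seq of 7 mouse hindlimb tendon libraries was used. The deposited files list, for 103639 transcripts, the authors' estimated counts (not whole, not normalized) and TPM, per the file headers. The submitters' processing notes name kallisto, FastQC 0.11.4 and the human build GRCh38; the transcript IDs are mouse, and the transcriptome release is not given in the sources used here. IDs were matched without version to GENCODE M21 (GRCm38; 101510 matched), and counts were summed per gene and rounded. Transcripts without a match stayed single features. RNA was extracted with Trizol and a column kit and prepared with a TruSeq kit, per the labels' protocols; strand is not stated. Replicates were numbered in accession order.

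Features were filtered with filterByExpr (minimum count 10), scaled by TMM and tested with edgeR 4.0.16 (R 4.3.3) on 3 group means. The SE is the log2 fold change divided by the square root of F. Log2 CPM used a prior count of 2. TPM was used to compare genes within a library and, scaled back to library size, as an alternative to counts; the top 5 features took 70.1% to 77.4% of it. DESeq2 1.42.0, limma 3.58.1 (voom), other scalings and filters, fits of the groups compared, the title series as covariate, length-scaled TPM and leaving out each library were alternatives, and leaving out libraries from the fit of tenotomy and contralateral tendon was added after seeing the data. Scripts were tested on simulated data.

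The 10 genes, the lists and the naming rule were chosen with earlier results of these data known. The rule named the 10 genes, Col2a1 and Sox9, the 4 largest changes past the threshold in each of 4 lists, and the 5 genes most like the set.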

Additional observations from a re-analysis of the deposited data

How the results depend on the processing

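The directions between tenotomy and contralateral tendon were the same for all 9 genes under every alternative run. The number of the 10 genes called there ranged from 0 to 9 (8 as reported) when a library was left out, the 0 occurring for each contralateral or tenotomy library in the fit of all groups. All features called there numbered 4643, 7385 with only these groups fitted, 7308 and 7336 without uninjured replicate 1 or 2, 7618 with these groups alone and contralateral replicate 1 left out, and 0 in the cases just named. Upper quartile scaling moved the median of all features by 0.11.

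Between tenotomy and uninjured tendon, where 0 were called, DESeq2 called 1, no filter on low counts 2 (Cnmd and Ucma), and leaving out a library 0 to 9. All features called were 160, 15 and 4 with DESeq2, no filter and the series covariate, and 4275 and 14 without uninjured replicate 1 or 2. Between contralateral and uninjured tendon DESeq2 called 1, no filter 2 (Acan and Matn3), the series covariate 6, in which the uninjured group rests on replicate 1, and leaving out a library gave 0 to 7. All features called were 217, 337 and 2466 in that order, and 105 and 5393 without uninjured replicate 1 or 2. Without uninjured replicate 1 the direction reversed for 6 genes, and their log2 fold changes over all fits with a library left out ran from -0.64 to 0.12 for Comp, -2.60 to 0.34 for Hapln1, -1.20 to 0.23 for Cilp, -0.29 to 1.75 for Prg4, -0.19 to 2.25 for Chad and -1.23 to 0.17 for Sox9. The cause of these changes was not tested. No paired analysis was possible because the labels give no replicate numbers. Cnmd, Ucma, Matn3, Mmp13, Epyc, Scrg1 and Col9a2 had at most 7 counts in any contralateral library, which limits the precision of their folds. With Spearman's correlation the 5 genes most like the set had rho from 0.857 to 0.929, and with a prior count of 0.5 Sptan1 ranked 12.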
